A study of Mus musculus with 4 samples.

Results

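Matrix metalloproteinases are zinc-dependent endopeptidases that cleave collagens and other components of the extracellular matrix, and tissue inhibitors of metalloproteinases bind and block them. Described here are 10 genes on mouse colon arrays, the 9 metalloproteinase genes Mmp2, Mmp3, Mmp7, Mmp8, Mmp9, Mmp10, Mmp12, Mmp13 and Mmp14 and the inhibitor gene Timp1. They were found as every probe, controls excluded, whose gene name on the array is one of these symbols, which gave 11 probes on 20 spots out of 39423 probes for 22368 named genes. Mmp12 has 2 probes and Mmp9 has 1 probe printed 10 times, and each other gene has 1 probe on 1 spot. The genes were picked with their signals on these same arrays in view, so their differences between arrays are a description and carry no test.

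The RNA came from colons of male mice labeled Pla2g3+/+ or Pla2g3-/- for the gene of group III secreted phospholipase A2, all 42 weeks old and on the background labeled B6.129 (n3). In each genotype, 1 group received saline as vehicle, and 1 group received the colon carcinogen azoxymethane (AOM) by intraperitoneal injection at 10 mg/kg weekly for 6 weeks, with tissue taken 28 weeks after the last injection. The 4 groups were each hybridized as 1 pool of RNA from 3 to 5 mice to 1 of 4 one-color arrays on 1 slide, so the spread between mice is not visible. That range is the one given with the deposited data, and the study gives a single number of mice per pool. The labels give colon as the tissue of all groups and describe the samples of both AOM groups as colorectal cancer tissue, without giving the share of tumor in a pool.

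In the colon, metalloproteinases are made by epithelial cells, fibroblasts and infiltrating leukocytes, mostly as inactive proenzymes that other proteases activate in the tissue. Many of their genes have an AP-1 site and a TATA box close to the transcription start and respond to inflammatory cytokines. Mmp7 is a long-known marker of intestinal adenomas, and in the small intestine it is the Paneth cell enzyme that activates alpha-defensins.

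Signals are given as relative signal, the background-subtracted intensity of a probe over the 75th percentile of all intensities on that array, which came to 646 and 649.8 for Pla2g3+/+ and Pla2g3-/- with vehicle and 1309 and 1169 after AOM. Between 64.8% and 69.4% of the 43020 spots of an array were well above background and 0 were saturated. If 1 array of a pair had no signal well above background for a gene, a limit took the place of that signal, namely the weakest intensity on that array still called well above background (10.7 to 17.1) or the gene's own signal where larger, and the ratio is written as "at least". No ratio was formed where neither array was well above background. The targeted gene went against the genotype labels. The brightest of 3 Pla2g3 probes gave intensities of 343 for Pla2g3+/+ and 426 for the array labeled Pla2g3-/- with vehicle, and of 304 and 1632 after AOM, so every direction below follows the labels as deposited. The sources used here do not place these probes relative to the deleted part of the gene, and a probe outside it would not check the labels.

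For the label Pla2g3+/+, AOM exceeded vehicle by over 2-fold in 10 of 10 genes, 3 of them as a bound, where 15.1% of 17275 genes were higher and 22.4% were lower by that measure. Their median log2 ratio was 4.67, against -0.17 over all genes. On the array labeled Pla2g3-/-, 7 genes had a value for AOM against vehicle, of which 0 were over 2-fold higher and 1 was lower (Mmp7), where 9.65% of 16514 genes were higher and 15.1% were lower. With vehicle, 7 genes had a value between the genotype labels, of which 1 was over 2-fold higher on the array labeled Pla2g3-/- (Timp1) and 0 were lower, where 1.92% of 16391 genes were higher and 1.32% were lower. After AOM, the Pla2g3-/- label was over 2-fold below the Pla2g3+/+ label in 10 of 10 genes, 4 of them as a bound, with a median log2 ratio of -4.22 against 0.03 over all genes, where 12.9% of 17194 genes were lower and 15.1% were higher. The first and the last comparison share the array labeled Pla2g3+/+ with AOM, and the picking of the genes used both. With 1 array per group there is no replicate check, and the only error available is the spot error that the scanner software models, an SD of 0.20 to 0.41 on the log2 scale for a measured ratio, which leaves out the spread between mice and pools.

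**Figure D1:**
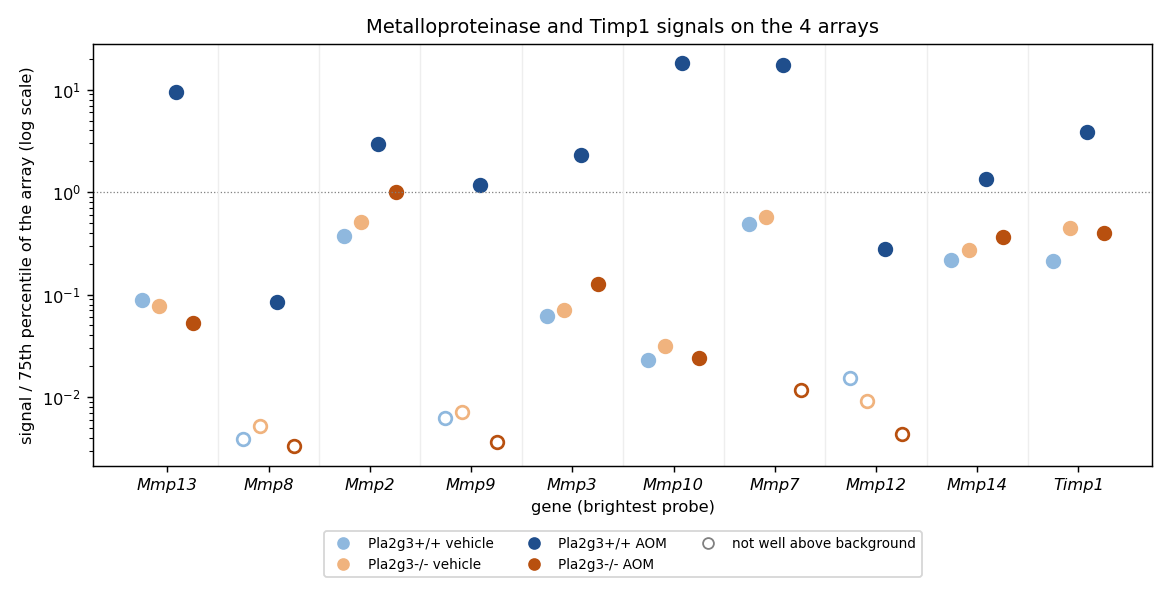
Relative signal of the brightest probe of each gene (vertical, log scale) on the 4 arrays, 1 point per array, with open points where the probe was not well above background. The Pla2g3+/+ AOM point was the highest of the 4 for all 10 genes.

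Of the 9 metalloproteinase genes, 6 lie in 1 cluster on chromosome 9, in the order Mmp13, Mmp12, Mmp3, Mmp10, Mmp8 and Mmp7. Their probes span 415 kb on mm9, the build of the array files, together with those of 4 further metalloproteinase genes, Mmp1b, Mmp1a, Mmp27 and Mmp20. Within the cluster, the probe of Mmp13 lies from 7282762 to 7282821, that of Mmp3 from 7455751 to 7455810, that of Mmp10 from 7510011 to 7510070, that of Mmp8 from 7568238 to 7568297 and that of Mmp7 from 7697641 to 7697700. The other described genes are probed on chromosome 8 from 95376840 to 95376899 (Mmp2), chromosome 2 from 164780620 to 164780679 (Mmp9), chromosome 14 from 55058775 to 55058834 (Mmp14) and chromosome X from 20451802 to 20451861 (Timp1). The 6 described genes had log2 ratios of AOM to vehicle on the arrays labeled Pla2g3+/+ from at least 2.35 for Mmp8 to 9.62 for Mmp10. None of the other 4 was over 2-fold higher in that comparison. Mmp1b had a log2 ratio of -2.68 or below, at relative signals of 0.0802 with vehicle and 0.00255, not well above background, after AOM. Mmp27 was above background with vehicle only, and Mmp1a and Mmp20 were below background on both arrays. Of 18 other genes with probes within 2000 kb of the cluster, 15 had a value, of which 3 were over 2-fold higher and 3 were lower, with a median log2 ratio of 0.47. The nearest neighbors on either side, Dcun1d5 and Tmem123, were at 0.06 and 0.61. Among the genes farther off, named after their values were seen, Trpc6 was at 2.68 or more, above the bound of Mmp8, and Dync2h1 at 1.66.

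**Figure D2:**
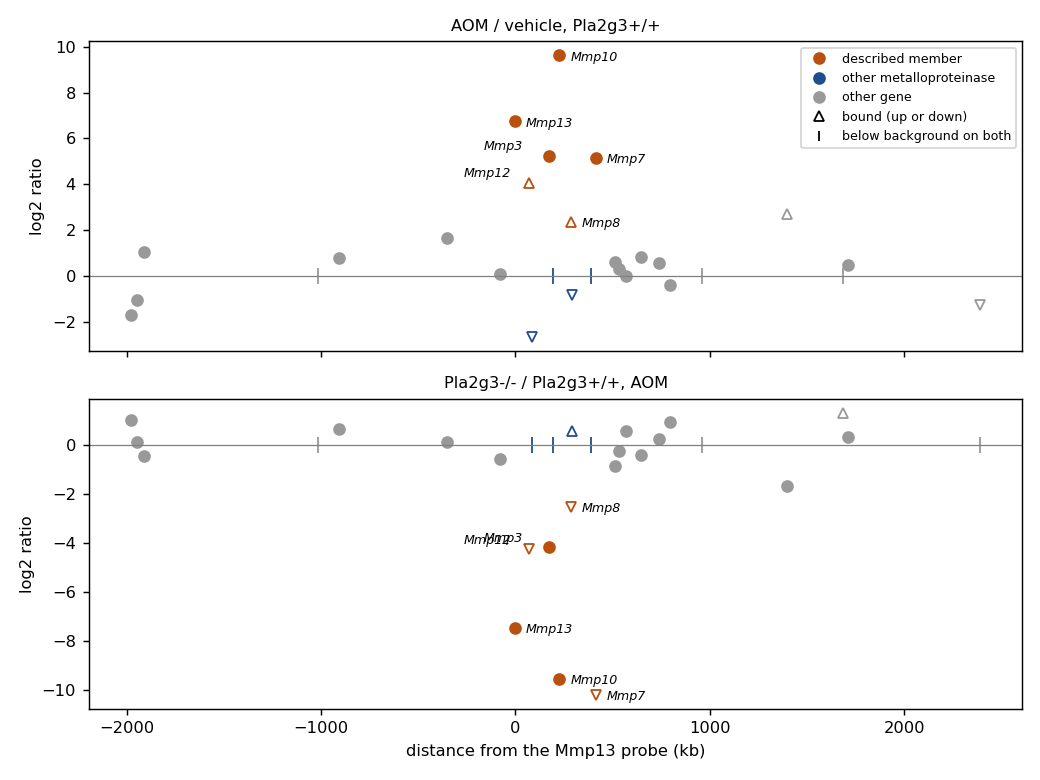
Log2 ratios of genes on chromosome 9 (vertical) against the distance of their probes from the Mmp13 probe in kb (horizontal), for AOM over vehicle with the label Pla2g3+/+ (top) and for Pla2g3-/- over Pla2g3+/+ after AOM (bottom). Filled points are measured ratios, open triangles are bounds and ticks on the zero line are genes below background on both arrays; the 6 described genes reach from 2.35 to 9.62 in the top panel and from -2.53 to -10.21 in the bottom panel.

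The promoters of the clustered genes are shown because 5 of the 6 hold the same short motif close to an annotated start. RefSeq promoter windows on GRCm38.p6, from 250 bases before to 50 bases after an annotated start, matched 8 of the 10 genes with 10 windows, and Mmp2 and Mmp9 had no entry. The AP-1 motif TGANTCA reads the same on both strands. In the 250 bases before the start it was found in 5 of the 8 genes, Mmp7, Mmp3, Mmp10, Mmp12 and Mmp13, all in the cluster. By window it was found in 5 of 10, against 6.75% of all 32851 windows of that length. The motif TATAAA on the sense strand was found in 4 of the 8 genes, in a single window of each, against 7.59% of all windows. The Ets core GGAA on either strand was found in 8 of 8, where 93.4% of all windows hold it. The motifs do not overlap each other as found. Below are the 150 bases before the start, sense strand, 5′ to 3′, with AP-1 and TATA motifs in capitals, for Mmp10 at chr9:7502192-7502341, Mmp7 at chr9:7691940-7692089, Mmp3 at chr9:7445672-7445821, Mmp13 at chr9:7272364-7272513 and Mmp12 at chr9:7347224-7347373, the downstream one of its 2 annotated starts, and, as the clustered gene with neither motif, Mmp8 at chr9:7558279-7558428.
Mmp10: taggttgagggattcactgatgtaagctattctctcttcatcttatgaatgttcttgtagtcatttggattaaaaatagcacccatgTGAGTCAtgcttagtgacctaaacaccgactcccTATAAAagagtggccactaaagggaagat
Mmp7: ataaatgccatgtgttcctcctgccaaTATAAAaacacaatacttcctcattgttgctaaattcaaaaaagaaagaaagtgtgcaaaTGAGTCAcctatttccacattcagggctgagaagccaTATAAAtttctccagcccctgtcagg
Mmp3: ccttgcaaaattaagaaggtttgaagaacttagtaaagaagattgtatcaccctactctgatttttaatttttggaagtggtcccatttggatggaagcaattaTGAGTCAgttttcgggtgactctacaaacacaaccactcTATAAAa
Mmp13: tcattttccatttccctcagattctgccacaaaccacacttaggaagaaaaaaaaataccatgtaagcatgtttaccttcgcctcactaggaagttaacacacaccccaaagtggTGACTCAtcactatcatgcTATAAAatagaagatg
Mmp12: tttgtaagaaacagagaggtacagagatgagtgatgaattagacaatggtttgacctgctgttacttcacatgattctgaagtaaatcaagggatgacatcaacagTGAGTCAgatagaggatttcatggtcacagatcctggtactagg
Mmp8: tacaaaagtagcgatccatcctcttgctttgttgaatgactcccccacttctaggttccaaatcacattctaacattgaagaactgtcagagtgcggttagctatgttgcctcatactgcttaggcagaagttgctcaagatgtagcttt
The AP-1 motif began 35 bases before the start in Mmp13, 44 in Mmp12, 46 in Mmp3 and 63 in both Mmp10 and Mmp7. The TATA motif began 29 bases before the start in Mmp10, 26 in Mmp7, which has another at 123, 16 in Mmp13 and 7 in Mmp3. The upstream Mmp12 window, the downstream Mmp7 window and the windows of Mmp8, Mmp14 and Timp1 held neither motif. A match is a string of letters and not a measured binding site, and no binding was measured in these samples.

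Among the collagenases, which cut fibrillar collagen, Mmp13 had relative signals of 0.0888 and 0.0775 with vehicle, for the labels Pla2g3+/+ and Pla2g3-/-, and of 9.49 and 0.0534 after AOM. One array was thus far above the other 3. The AOM to vehicle ratio was 107-fold for the label Pla2g3+/+ (log2 6.74, spot error SD 0.21), and the array labeled Pla2g3-/- after AOM was 178-fold lower (log2 -7.47, SD 0.22). Mmp8, the collagenase stored in neutrophil granules, was above background on 1 array, at 0.0847 for Pla2g3+/+ with AOM. Its other signals, 0.00386, 0.00521 and 0.0033, were not well above background. Its ratio was at least 5.11-fold for AOM over vehicle and at least 5.79-fold between the labels after AOM. With the normexp background correction its AOM to vehicle log2 ratio on the arrays labeled Pla2g3+/+ was 0.42 with the 75th percentile and 0.84 after quantile normalization, below 2-fold, and its log2 ratio between the labels after AOM was -1.05 and -0.79.

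Among the gelatinases, which cut denatured collagen and basement membrane collagen, Mmp2 is a product of stromal cells and Mmp9 largely one of leukocytes. Mmp2 had relative signals of 0.376 and 0.506 with vehicle and of 2.96 and 1.01 after AOM for the labels Pla2g3+/+ and Pla2g3-/-. It was the gene whose array labeled Pla2g3-/- with AOM came nearest to a 2-fold excess over its vehicle array, at a log2 ratio of 0.99, against 2.98 for the label Pla2g3+/+. Between the labels after AOM it was 2.94-fold lower (log2 -1.56, SD 0.20), the smallest of the 10 differences. Mmp9 was not well above background on 3 arrays, at 0.0062, 0.00708 and 0.00368, and reached 1.18 on the Pla2g3+/+ AOM array. The 10 spots of its probe ranged there from intensities of 1470 to 1610, with an SD of 0.051 on the log2 scale, and from 2.25 to 9.59 on the vehicle arrays and 3.53 to 5.84 on the array labeled Pla2g3-/- with AOM. No spot of the dim arrays came near the lowest spot of the bright one. The ratio was at least 70.9-fold for AOM over vehicle and at least 80.4-fold between the labels after AOM. Over the alternatives, the one that takes dim signals as measured included, these log2 ratios were 3.46 to 7.57 and -8.32 to -3.41. The 10 spots are repeats on 1 array and not samples.

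Among the stromelysins, which cleave proteoglycans and also activate other proenzymes, Mmp3 had relative signals of 0.0616 and 0.0711 with vehicle and of 2.32 and 0.127 after AOM. The array labeled Pla2g3-/- with AOM was 1.79-fold above its vehicle array, within 2-fold, and 18.2-fold below the array labeled Pla2g3+/+ with AOM (log2 -4.19, SD 0.21). The first of these turned to a log2 ratio of -1.45 with normexp and the 75th percentile and was 1.69 without scaling. Mmp10 had the largest AOM to vehicle ratio of the 10 genes, from 0.0231 and 0.0313 with vehicle to 18.1 for Pla2g3+/+ and 0.0242 for the array labeled Pla2g3-/- after AOM. That is an intensity of 23760 on 1 array against 14.9, 20.3 and 28.3 on the other 3, which lie just above the lowest signals called well above background. The ratio for the label Pla2g3+/+ was 785-fold (log2 9.62, SD 0.32). It was 7.37 to 10.6 on the log2 scale under the alternatives, with the vehicle value near background.

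Mmp7, or matrilysin, which is made by epithelial cells, was the 1 gene of the 7 with a value that was over 2-fold lower after AOM than with vehicle for the label Pla2g3-/-. Its relative signals were 0.487 and 0.576 with vehicle, 17.4 for Pla2g3+/+ with AOM and 0.0118, not well above background, for the array labeled Pla2g3-/- with AOM. It was thus 35.6-fold higher after AOM for one label (log2 5.16, SD 0.21) and at least 39.4-fold lower for the other (log2 -5.30 or below). Between the labels after AOM it was at least 1186-fold lower. Both bounds depend on the limit and the processing. Over the alternatives, the one that takes dim signals as measured included, these log2 ratios were -5.61 to -2.44 and -10.5 to -7.3. Markers of Paneth cells are given beside Mmp7. On the arrays labeled Pla2g3+/+, 6 of 8 were over 2-fold higher after AOM and 1 was lower, with a median log2 ratio of 5.87. For the label Pla2g3-/-, 6 had a value, of which 1 was over 2-fold higher and 4 were lower, with a median of -1.35. Between the labels after AOM, 8 of 8 were over 2-fold lower, with a median of -6.47. Lyz1, the Paneth lysozyme, was at 8.79 and 12.3 with vehicle and at 29.3 and 5.52 after AOM. The 4 defensin genes of this list with a probe were Defa3, Defa21, Defa23 and Defa26, named after their values were seen. They reached relative signals from 2.45 to 38.6 on the array labeled Pla2g3+/+ with AOM, with log2 ratios to vehicle of 7.21 or more. For the label Pla2g3-/-, the log2 ratio of AOM to vehicle was -1.54 for Defa3 and 1.22 for Defa23. Defa21 and Defa26 were below background on both of those arrays. Itln1, a lectin of Paneth and goblet cells, was at 20.6 and 14.5 with vehicle and at 18.8 and 0.403 after AOM. Ang4, an antimicrobial ribonuclease, was the lower one after AOM for the label Pla2g3+/+. Its signals were 131 and 107 with vehicle and 4.6 and 0.468 after AOM. The summed signal of the list, most of it Ang4 with vehicle, was 161 and 134 with vehicle and 128 and 6.73 after AOM. Their part in the Mmp7 signal was not tested.

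Mmp12, the macrophage elastase, was well above background on 1 array with 1 of its 2 probes. The brighter probe, on chromosome 9 from 7352935 to 7352994 of mm9, had relative signals of 0.0155 and 0.00915 with vehicle and of 0.278 and 0.00436 after AOM. The other probe, from 7360373 to 7360432, was not well above background on any array, at 0.00485, 0.00642, 0.0108 and 0.00409, although its highest signal was on the same array. By the brighter probe Mmp12 was at least 16.8-fold higher after AOM for the label Pla2g3+/+ and at least 19.0-fold lower between the labels after AOM. With the mean over both probes these bounds were 1.72 and -1.90 on the log2 scale, and over the normexp settings the smallest were 1.44 and -1.53. Mmp14, a metalloproteinase anchored in the cell membrane that activates the Mmp2 proenzyme, had relative signals of 0.220 and 0.272 with vehicle and of 1.33 and 0.366 after AOM. It was 6.04-fold higher after AOM for the label Pla2g3+/+ (log2 2.59, SD 0.21) and 1.35-fold higher for the label Pla2g3-/-. Mmp14 and its substrate Mmp2 were the 2 genes with the smallest differences between the labels after AOM, at log2 ratios of -1.86 and -1.56.

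Timp1, a secreted inhibitor of most metalloproteinases, was at relative signals of 0.211 and 0.444 with vehicle and of 3.83 and 0.399 after AOM. Of the 7 genes with a value it was the only one past 2-fold between the labels with vehicle, at 2.10-fold higher on the array labeled Pla2g3-/- (log2 1.07, SD 0.21). This lies on the threshold, and after normexp with quantile normalization it was 0.76. After AOM it was 18.2-fold higher than with vehicle for the label Pla2g3+/+ and 1.11-fold lower for the label Pla2g3-/-, and between the labels 9.61-fold lower.

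**Figure D3:**
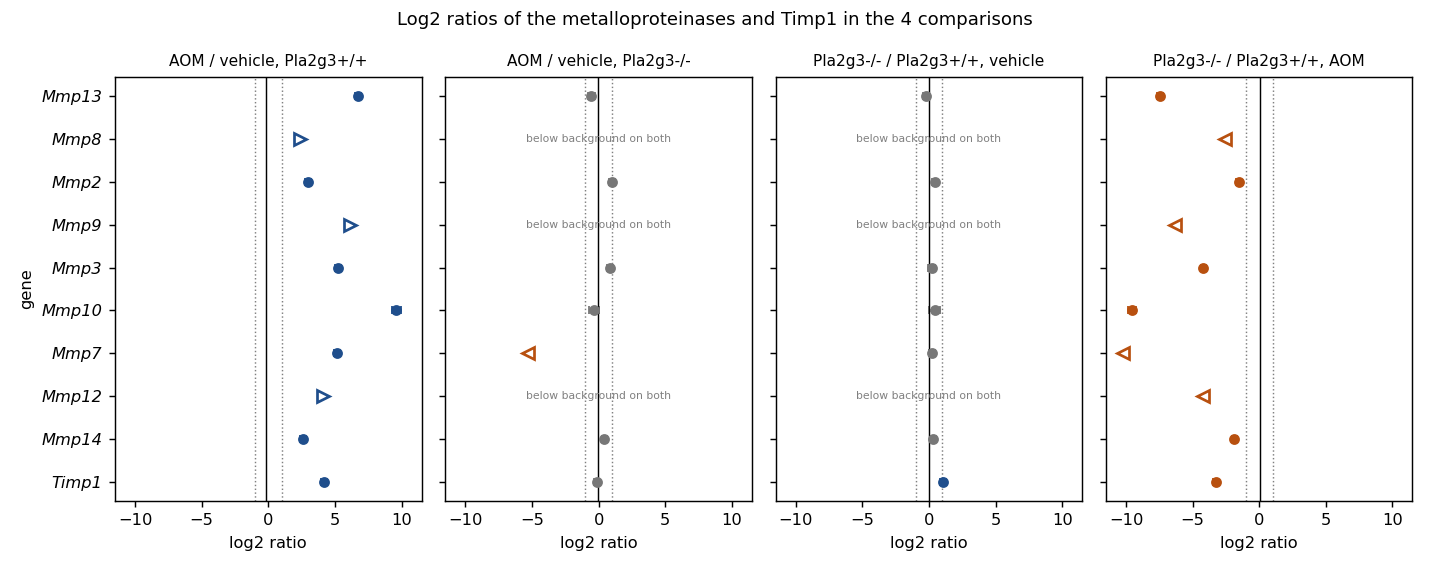
Log2 ratios of the 10 genes (horizontal) in the 4 comparisons of pairs of arrays, with bars for the SD of the spot error model, open triangles for bounds, dotted lines at 2-fold and a solid line at the median of all genes. All 10 genes lie beyond 2-fold to the right in the first panel and to the left in the last, and in the middle panels Mmp7 and Timp1 lie beyond 2-fold.

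The array labeled Pla2g3+/+ with AOM ranked first in relative signal for 10 of 10 genes, by 1.56 on the log2 scale or more over the next. Below it the order was mixed, and for Mmp8, Mmp9 and Mmp12 there is none, since their other 3 arrays were not well above background. Of the other 7 genes, the array labeled Pla2g3-/- with vehicle came second for 3 (Mmp7, Mmp10 and Timp1), the array labeled Pla2g3-/- with AOM for 3 (Mmp2, Mmp3 and Mmp14) and the array labeled Pla2g3+/+ with vehicle for 1 (Mmp13). The arrays ranked 2 and 3 differed by less than 2 SDs of the spot error for 4 of the 7, the exceptions being Mmp2, Mmp3 and Mmp14. The array labeled Pla2g3-/- with AOM came last for 2, Mmp7 and Mmp13. The array labeled Pla2g3+/+ with vehicle came last for 5, Mmp2, Mmp3, Mmp10, Mmp14 and Timp1. For Mmp3, Mmp10 and Mmp14 it was less than 2 SDs below the array ranked 3. The log2 AOM to vehicle ratio for the label Pla2g3-/- minus that for the label Pla2g3+/+ was -1.98 for Mmp2 (SD 0.29), -2.16 for Mmp14 (SD 0.29), -4.34 for Timp1 (SD 0.29), -4.39 for Mmp3 (SD 0.34), -7.28 for Mmp13 (SD 0.32), -9.98 for Mmp10 (SD 0.50) and -10.45 or below for Mmp7. The other 3 genes were below background on both arrays labeled Pla2g3-/- and have no such value.

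The 14 other metalloproteinase genes were mixed in direction. Their summed relative signal was 2.17 with vehicle for both labels, 2.47 for Pla2g3+/+ with AOM and 2.28 for Pla2g3-/- with AOM, whereas that of the 10 described genes was 1.49 and 2.0 with vehicle and 57.0 and 2.0 after AOM. For the label Pla2g3+/+, 8 of the 14 had an AOM to vehicle value, of which 2 were over 2-fold higher and 3 were lower. Mmp11, or stromelysin 3, a product of tumor stroma, was at 0.169 and 0.195 with vehicle and at 0.787 and 0.371 after AOM. Its log2 ratio was 2.22 for the label Pla2g3+/+ and 0.93 for the label Pla2g3-/-. Mmp19 was at 0.0258 and 0.0256 with vehicle and at 0.0983 and 0.0437 after AOM, with log2 ratios of 1.93 and 0.77. Both were thus also highest on the array labeled Pla2g3+/+ with AOM, with log2 ratios between the labels after AOM of -1.09 and -1.17. The membrane-anchored Mmp17 and Mmp24 went the other way for the label Pla2g3+/+, with log2 ratios of -2.29 and -1.37, as did Mmp1b. Mmp17 was the 1 gene of the list over 2-fold higher between the labels after AOM, at a log2 ratio of 1.54. Mmp15 and Mmp23 had log2 ratios of 0.14 and 0.20 for AOM over vehicle with the label Pla2g3+/+. For the label Pla2g3-/-, 6 of the 14 had a value, of which 0 were over 2-fold higher and 1 was lower, Mmp24, at -1.58.

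Of the other metalloproteinase inhibitors, Timp2 was at relative signals of 14.5 and 15.7 with vehicle and of 18.7 and 22.5 after AOM, and did not reach 2-fold in any comparison. Timp3, which is bound to the matrix, was at 2.88 and 2.97 with vehicle and at 6.09 and 4.87 after AOM, with log2 ratios of AOM to vehicle of 1.08 and 0.71. Timp4 was at 0.395 and 0.374 with vehicle and at 0.093 and 0.471 after AOM, with log2 ratios of -2.09 for AOM over vehicle with the label Pla2g3+/+ and of 2.34 between the labels after AOM. Reck, a membrane-anchored inhibitor, stayed within 2-fold in the 4 comparisons. Of these 5 inhibitor genes, Timp1 and Timp3 were highest on the array labeled Pla2g3+/+ with AOM, and Timp2, Timp4 and Reck on the array labeled Pla2g3-/- with AOM.

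The plasminogen activator system, whose product plasmin activates several proenzymes of the family, had 6 of 7 genes with a value over 2-fold higher and 1 lower after AOM for the label Pla2g3+/+, with a median log2 ratio of 2.70. Plaur, the urokinase receptor, was at 0.706 and 0.646 with vehicle and at 4.59 and 0.439 after AOM. Plgrkt, a plasminogen receptor, was the lower one, at 12.2 and 10.9 with vehicle and 2.47 and 8.90 after AOM. For the label Pla2g3-/-, 3 of 8 were over 2-fold higher. Of 8 cytokines that induce metalloproteinases, 8 were over 2-fold higher after AOM for the label Pla2g3+/+, with a median log2 ratio of 2.71, and 8 were lower between the labels after AOM, with a median of -3.63. For the label Pla2g3-/-, 4 of them had an AOM to vehicle value, of which 0 were higher and 1 was lower. Il1b was at 0.102 and 0.0967 with vehicle and at 5.67 and 0.079 after AOM. Tnf was at 0.162 and 0.121 with vehicle and at 0.828 and 0.048 after AOM, and Tgfb1 at 0.123 and 0.124 with vehicle and at 0.350 and 0.087 after AOM. The 9 genes for AP-1 subunits were less uniform, with 3 over 2-fold higher and 0 lower after AOM for the label Pla2g3+/+, and 3 higher and 1 lower for the label Pla2g3-/-. Jun had log2 ratios of 1.19 and -0.17, Fosl2 of 0.87 and 1.14 and Jund of -0.86 and 0.23 for these labels.

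In bulk RNA, fewer cells of a type and less RNA per cell cannot be told apart, and the arrays differed in markers of several cell types. Colon epithelium markers were well above background on all arrays, 11 of 11 on each. Their summed relative signal was 969 and 996 with vehicle and 435 and 779 after AOM. Smooth muscle markers, which include Acta2, Tagln and Actg2, were over 2-fold lower in 8 of 8 on the array labeled Pla2g3+/+ with AOM than with vehicle, with a median log2 ratio of -4.59, and their sum was 497 and 523 with vehicle, 29.1 for Pla2g3+/+ with AOM and 475.5 for the array labeled Pla2g3-/- with AOM. The array on which the 10 genes were high was therefore also the one on which muscle markers were low. Wnt target genes of colon tumors, among them Notum, Sox4 and Ccnd1, were over 2-fold higher in 12 of 12 on that array, and their sum was 10.8 and 11.3 with vehicle and 64.7 and 9.35 after AOM. Neutrophil markers were over 2-fold higher in 7 of 11 and lower in 0 there. Under the label Pla2g3-/-, 4 of 10 were higher after AOM and 1 was lower. Between the labels after AOM, 2 of 11 were higher and 6 were lower. Their sums, most of it Csf3r with vehicle, were 56.0 and 55.2 with vehicle and 103 and 72.6 after AOM. S100a9 was at 0.224 and 0.155 with vehicle and at 35.8 and 0.387 after AOM, whereas Csf3r was at 49.5 and 50.02 with vehicle and at 44.4 and 53.8 after AOM, and Ly6g at 5.07 and 3.59 with vehicle and 2.60 and 7.44 after AOM. Macrophage markers were higher in 9 of 11 and lower in 1 for the label Pla2g3+/+. Their sums were 35.0 and 34.8 with vehicle and 41.0 and 27.1 after AOM. Itgam, the lower one and the brightest with vehicle, was at 18.7 and 15.4 with vehicle and at 5.95 and 12.6 after AOM. Csf1r was at 5.55 and 5.94 with vehicle and at 8.30 and 3.83 after AOM. Cd14 was at 3.08 and 2.71 with vehicle and at 7.09 and 2.33 after AOM. Under the label Pla2g3-/-, 1 of 11 macrophage markers was higher after AOM and 2 were lower. Between the labels after AOM, 1 of 11 was higher and 9 were lower. Fibroblast markers were higher in 5 of 10 and lower in 2 for the label Pla2g3+/+, where 22.4% of all genes were lower. For the label Pla2g3-/-, 3 of 10 were higher after AOM and 0 were lower. Between the labels after AOM, 3 of 10 were higher and 4 were lower. The sums of the fibroblast markers were 42.0 and 47.2 with vehicle and 121 and 88.6 after AOM. Mast cell markers were higher in 8 of 9 and lower in 1 for the label Pla2g3+/+. For the label Pla2g3-/-, 6 of 9 were over 2-fold higher after AOM and 2 were lower. The array labeled Pla2g3-/- with AOM was over 2-fold below the Pla2g3+/+ AOM array in 7 of 9 and above it in 0. Their sums, most of it Kit with vehicle, were 2.02 and 1.74 with vehicle and 28.2 and 1.90 after AOM. Kit was at 1.226 with vehicle and 0.753 after AOM for the label Pla2g3-/-. The part of these cell types in the signals of the 10 genes was not tested.

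**Figure D4:**
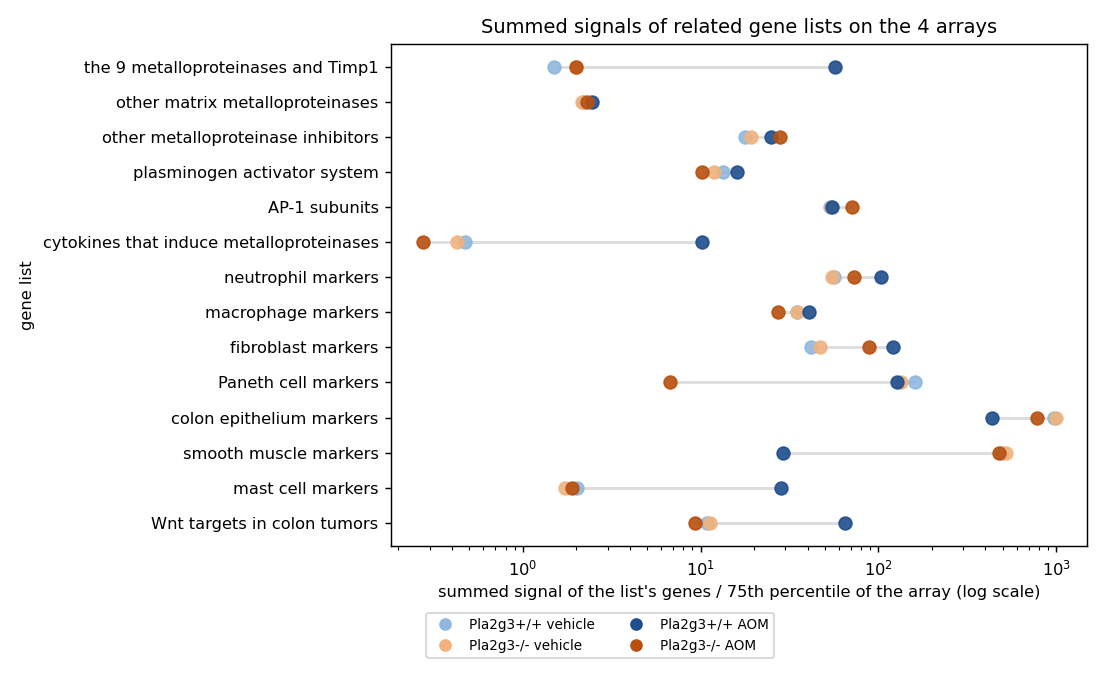
Summed relative signal (horizontal, log scale) of each gene list (vertical) on the 4 arrays, 1 point per array. The array labeled Pla2g3+/+ with AOM stands apart for the 10 described genes (57.0 against 1.49 to 2.0), the cytokines, the mast cell markers and the Wnt targets on the high side and for smooth muscle (29.1 against 475.5 to 523) on the low side.

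Among 14782 other genes well above background on the 4 arrays, those whose log2 profile, centred on its own mean, lay nearest to the median profile of the 10 genes were found by the root-mean-square difference over these 4 points. Evx1, a homeobox gene, was nearest at 0.12. Its relative signals were 0.146 and 0.187 with vehicle and 3.19 and 0.151 after AOM. Arg1, an arginase of alternatively activated macrophages, followed at a distance of 0.19. Its signals were 0.0530 and 0.0883 with vehicle and 1.67 and 0.0580 after AOM. Pla2g2a, a secreted phospholipase A2, lay at a distance of 0.22, with signals of 0.223 and 0.339 with vehicle and 5.14 and 0.187 after AOM. Adamts4, a metalloproteinase that cleaves aggrecan, and Nkd1, a Wnt target, followed at 0.27 and 0.29. Of the 10 genes themselves, Mmp12 lay nearest to their median at 0.23, with signals not well above background set to the limit of their array, and Mmp7 farthest at 2.35. The profile has 1 high point among 4, and nearness over 4 arrays is a description of these arrays.

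**Figure D5:**
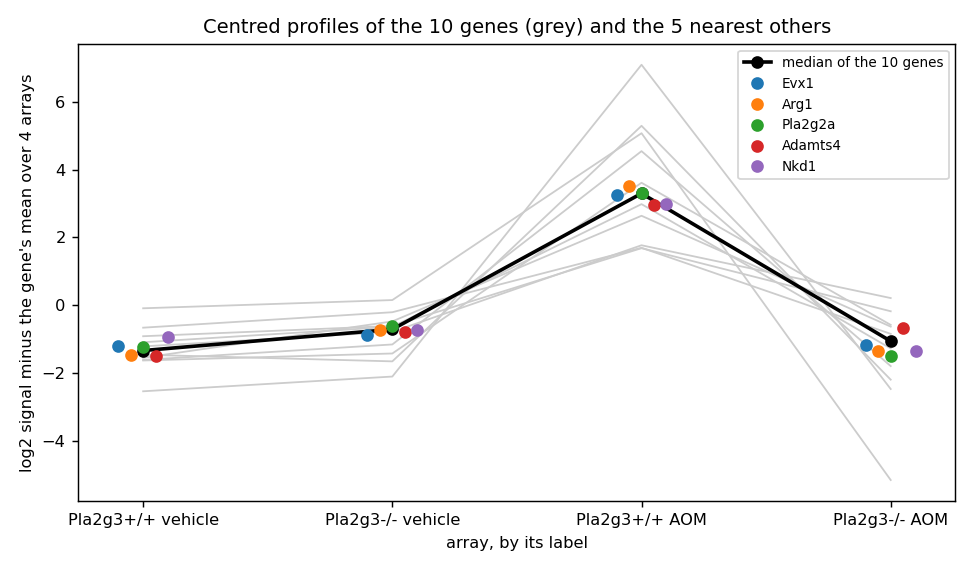
Log2 signal of each gene minus its mean over the 4 arrays (vertical) against the array (horizontal), in grey for the 10 genes, with signals not well above background set to the limit of their array, in black for their median and as colored points for the 5 nearest other genes. All lines peak on the array labeled Pla2g3+/+ with AOM, where the median is 3.30, and the lowest grey line on the last array is Mmp7, at -5.14.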

How the data were processed

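Total RNA of pooled mouse colons, 27.7 ng per labeling, was measured on 4 one-color Agilent arrays with probes of 60 bases. The authors deposited, per the file headers, an intensity for each spot from Agilent Feature Extraction 11.5.1.1, with the background subtracted and a detrending of each array, unscaled across arrays, and with a call of signals well above background. They also deposited a table of ratio values, which equals that intensity divided by 1 number per array on the linear scale. Genes were named on the array, or by accession through a RefSeq table of GRCm38.p6, which named 31367 of 39423 probes; probe coordinates are on mm9.

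Here, control and outlier spots were left out, log2 intensities of repeat spots were averaged, and the log2 of the 75th percentile of the array was subtracted. The probe with the highest mean over the 4 arrays stood for a gene. Ratios were differences of log2 values between 2 arrays with 2-fold as the threshold. A comparison of 2 single arrays has no test, a model over the 4 arrays was not used because the genes were picked on their signals there, and the number of arrays limits the precision. The genes, lists and thresholds were chosen with earlier results of these data known. Named were all described genes, all other metalloproteinase and inhibitor genes with a value, Pla2g3, the 3 genes of highest mean signal of each other list, 1 of which is not reported here, and the 5 genes of nearest profile; Mmp1a, Mmp20, Dcun1d5 and Tmem123 were named for their position, and Trpc6, Dync2h1 and 4 defensin genes for their values, after these were seen. Alternatives were no scaling, scaling by the median, quantile normalization, normexp with an offset of 50 (limma 3.58.1 in R 4.3.3), other treatments of dim spots, other probe choices, the deposited table and thresholds of 1.5-fold and 4-fold. The ratio script was tested on simulated data. Python 3.11.15, pandas 2.3.3, numpy 2.4.6 and matplotlib 3.10.9 were used.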

Additional observations from a re-analysis of the deposited data

Results flagged for a closer look

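Mmp7 moved past 2-fold in opposite directions after AOM under the 2 genotype labels, with a log2 ratio to vehicle of 5.16 for the label Pla2g3+/+ and of -5.30 or below for the label Pla2g3-/-. Timp1 was past 2-fold in opposite directions between the genotype labels under the 2 treatments, with a log2 ratio of Pla2g3-/- to Pla2g3+/+ of 1.07 with vehicle and -3.26 after AOM. With 1 array per group, neither difference was tested.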

How the results depend on the processing

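Of 440 values of single genes under 11 alternatives, 427 stayed on their side of 2-fold, 13 crossed it and 0 past it in the main setting changed sign. With AOM against vehicle for the label Pla2g3-/-, the number of the 10 genes over 2-fold higher (0) was 3 without scaling (Mmp2, Mmp3 and Mmp14), which moves the median log2 ratio of all genes to 0.76 there and to 0.87 for the label Pla2g3+/+, and 2 at 1.5-fold. The number lower (1) was 4 with normexp and the 75th percentile (also Mmp3, Mmp10 and Mmp13, at -1.45, -2.45 and -1.96), which moves that median to -0.42, 2 without a filter on dim probes and 0 with genes above background on both arrays only. Between labels with vehicle, the number higher (1) was 4 with normexp and the 75th percentile (also Mmp3, Mmp10 and Mmp13), at a median of all genes of 0.17, 0 with normexp and quantile normalization and 0 at 4-fold. Between labels after AOM, the number lower (10) was 6 with genes above background on both arrays only, since bounds are then left out. Other counts stayed within 1.5 times. Ratios within 2-fold could change sign, such as Mmp13 between labels with vehicle, from -0.20 to 1.29. No paired analysis was possible because each group had 1 array, and leaving out an array leaves no comparison. Signals near background limit Mmp8, Mmp9, Mmp10 and Mmp12, and Mmp7 on the array labeled Pla2g3-/- with AOM.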
